A study of Mus musculus with 8 samples.

Results

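The genes described here are those of the activated vessel wall and of vessel tone in mouse forepaw skin after an intradermal injection of PACAP, a neuropeptide that widens blood vessels. They are 10 genes, Sele, Selp, Icam1, Vcam1, Edn1, Nos2, Nos3, Thbd, Pecam1 and Cdh5, and were chosen by name among the array's gene probes. They were read by 12 of 39429 probes, and all 10 genes had a probe that cleared background clearly in 1 channel or more of each array. Endothelial cells line the vessels and keep blood fluid and leukocytes out of the tissue. When they are activated by cytokines, transcription factors such as NF-kB switch on adhesion molecules, to which leukocytes first roll and then bind firmly. Vessel width is set in part by endothelin, which constricts, and by nitric oxide, which relaxes the muscle of the wall. PACAP acts through PAC1R, the product of Adcyap1r1, and through the VPAC receptors shared with VIP.

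The groups were C57BL/6 wild-type (WT) mice and Adcyap1r1 -/- mice (PAC1R KO), 9 to 10 weeks old, and all were anaesthetized. Injections into the footpad were 5 µL of saline with 0.1% BSA, either with PACAP at 1e-07 mol/L or without it (vehicle). Skin was taken 30 or 60 min later. The study's methods name 6 mice of each genotype. They do not say whether a mouse received PACAP, vehicle or both, which mice entered each RNA sample or whether RNA was pooled. No uninjected skin was analysed here. The 8 RNA samples were hybridised as 4 pairs of PACAP and vehicle on 2-colour Agilent arrays, and each pair was run on 2 arrays with swapped dyes. Such a pair of arrays measured the same RNA and was taken as 1 replicate, which leaves each comparison without a second set of animals. The WT arrays shared 1 slide and the KO arrays a second one, which means that slide and genotype cannot be told apart. Per array, the spots that clearly exceeded background made up 78.6% to 94.5% in red (Cy5) and 54.0% to 65.3% in green (Cy3). Precision is limited by how few arrays there are. The deleted gene was read by 1 probe that begins at base 5624 of its transcript, and its log2 level in vehicle skin was 8.28 and 8.67 in WT at 30 and 60 min and 7.98 and 8.56 in the samples labelled KO. The difference was within the error (-0.21, SE 0.27, adjusted p = 0.96 in limma). Whether the deletion covers the probe is not given in the sources used here, so this reading does not check the genotype labels.

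The skin held vessels in every sample. All 24 measured genes of an endothelial marker list, among them Kdr, Tek, Vwf and Emcn, were above background in all 16 readings, which are 2 for each of 8 RNA samples. The log2 of their summed level was between 15.25 and 15.49 in the vehicle samples and between 15.24 and 15.44 in the PACAP samples. The tissue also held skeletal muscle, with 16 of 16 muscle markers above background in every reading. In whole skin, fewer cells of a type and less RNA per cell cannot be told apart.

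The sequences below show where the readings of the adhesion genes came from. They are given for the members whose 2 arrays or 2 probes disagreed most, 5′ to 3′ in lower case. The Icam1 probe lies at chr9:20832290-20832349 on the plus strand and the Vcam1 probe from base 842 of the transcript at chr3:115828953-115829012 on the minus strand of mm9, the build in the file headers. The Sele probe lies at chr1:165987726-165987785 (plus) and the Vcam1 probe from base 3060 at chr3:115813216-115813275 (minus), and of these the first 30 bases are shown.
Icam1 probe: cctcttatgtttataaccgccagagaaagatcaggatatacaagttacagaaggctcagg
Vcam1 probe from base 842: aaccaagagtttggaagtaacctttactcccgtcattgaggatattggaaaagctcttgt
Vcam1 probe from base 3060: tatatttttataggcaaatggtaaagaggt
Sele probe: gagtatttaacggtagctggttttaagaca

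RefSeq's table of promoters (GRCm38.p6) held 4 of the 10 genes, Sele, Selp, Icam1 and Edn1. The 250 bases before the start are printed for Sele and Icam1, whose transcription is known to be driven by NF-kB in activated endothelium. Capitals mark matches on either strand to 4 motifs. The NF-kB-like motif was GGNNNTTCC. For AP-1 the letters TGANTCA were used. The cyclic AMP response element (CRE) was searched as TGACGTCA, and the TATA box as TATAAA. These motifs were chosen with the sequences in view.
Sele, chr1:164047984-164048233, plus strand: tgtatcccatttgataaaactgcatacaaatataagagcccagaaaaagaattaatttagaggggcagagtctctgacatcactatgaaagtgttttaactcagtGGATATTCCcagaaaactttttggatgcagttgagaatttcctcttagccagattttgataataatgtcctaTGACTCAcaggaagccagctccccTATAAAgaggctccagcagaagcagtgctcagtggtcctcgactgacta
Icam1, chr9:21015690-21015939, plus strand: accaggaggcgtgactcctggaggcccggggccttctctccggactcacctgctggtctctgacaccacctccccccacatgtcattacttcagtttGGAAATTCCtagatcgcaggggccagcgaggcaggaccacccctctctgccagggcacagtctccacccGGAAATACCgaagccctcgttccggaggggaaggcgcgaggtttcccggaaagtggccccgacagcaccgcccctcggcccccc
In Sele the NF-kB-like letters stood from -145 to -137, the AP-1 letters from -73 to -67 and the TATA box from -49 to -44 relative to the start. Icam1 held the NF-kB-like letters from -153 to -145, where either strand matches the motif, and from -84 to -76. Selp held NF-kB-like letters from -14 to -6 and AP-1 letters from -139 to -133, and Edn1 matched none of the 4 motifs in this window. Of 32851 promoters, 15.7% held the NF-kB-like motif, 6.75% AP-1, 1.55% CRE and 12.4% the TATA box, so the matches are common letters and describe the sequence only.

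No member was called up- or down-regulated by PACAP in WT or in KO mice, at 30 or at 60 min. A probe was called when PACAP over vehicle, averaged over both arrays, reached 2-fold or fell to 0.5-fold and both arrays agreed in direction with a spot p of Feature Extraction, the scanner software, below 0.01. By this rule 0 of 12 member probes were called, against 0.451% (WT) and 0.913% (KO) of 30351 probes at 30 min and 0.867% (WT) and 0.353% (KO) at 60 min. At such shares a list of 12 probes with no call is close to the background. The mean ratio of the 10 genes, each by its brightest probe, had a median log2 value of 0.06 (WT, 30 min), -0.06 (KO, 30 min), 0.06 (WT, 60 min) and 0.11 (KO, 60 min). The medians over 23115 genes tested were -0.04, -0.01, -0.01 and 0.00 in the same order. Both arrays gave the same direction for 8, 8, 6 and 9 of 12 member probes, against 55.0%, 62.4%, 44.1% and 44.5% of all probes tested.

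**Figure D1:**
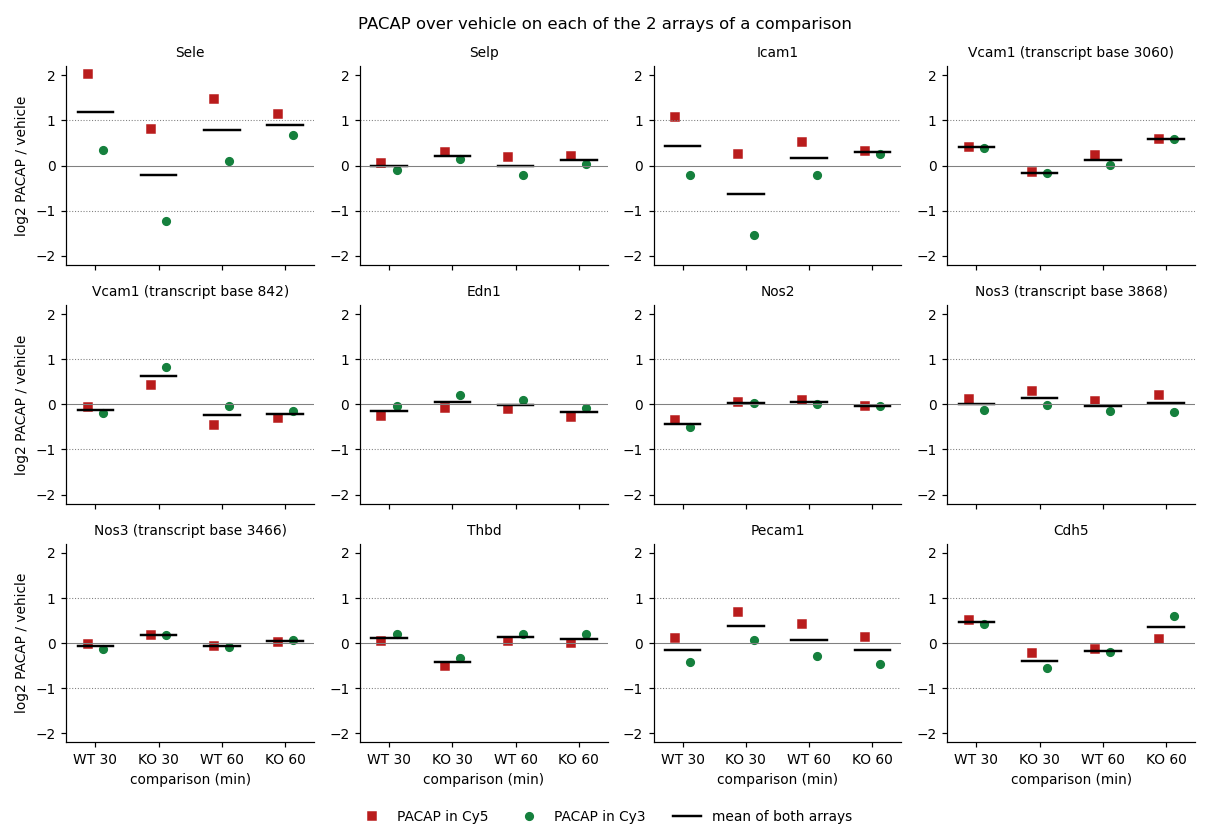
Log2 ratio of PACAP over vehicle (y axis) in the 4 comparisons (x axis, minutes after injection) for the 12 member probes. Squares are the array with PACAP in Cy5, circles the array with PACAP in Cy3, bars their mean, and dotted lines a 2-fold change; Sele and Icam1 spread widest between the arrays, while the means of the Vcam1 probes lie on opposite sides of 0 in 4 of 4 comparisons.

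Sele encodes E-selectin, which endothelium makes mainly when activated and which lets neutrophils roll. The arrays of a pair differed in the size of its ratio in every comparison, least in KO at 60 min. In WT at 30 min PACAP over vehicle was 4.11-fold with PACAP in Cy5 and 1.27-fold with PACAP in Cy3, a mean of 2.29-fold. At 60 min the WT arrays gave 2.77 and 1.07 times the vehicle signal (mean 1.72-fold), and the KO arrays 2.2 and 1.6 times (mean 1.88-fold). Thus both arrays lay above 1 in these 3 comparisons, and the array with PACAP in Cy5 was always the higher. In KO at 30 min the arrays gave 1.76-fold and 0.427-fold, on opposite sides of 1. The Feature Extraction p was below 0.01 on the Cy5 array alone in WT at 30 min (0.000894 against 0.364), in WT at 60 min (0.00099 against 0.804) and in KO at 60 min (4.22e-05 against 0.0109). The probe was dim, being above background in 8 of 8 red readings but 3 of 8 green readings. With PACAP in Cy5 the green vehicle reading was above background only in KO at 60 min, so the Cy5 ratios of the other 3 comparisons divide by a reading that was not, and their size is uncertain. The green PACAP reading of the swapped array was not above background in WT at 60 min or KO at 30 min. After normexp background correction and loess, the same mean ratios were 0.21, 0.15 and 0.32 on the log2 scale, in place of 1.19, 0.78 and 0.91. On that scale Cdh5 (0.42) and the brighter Vcam1 probe (0.36) exceeded Sele in WT at 30 min, and Vcam1 (0.50) did in KO at 60 min.

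Icam1, the ligand to which the integrins of rolling leukocytes bind firmly, behaved likewise. In WT at 30 min the arrays gave 2.1-fold with PACAP in Cy5 and 0.863-fold in Cy3, and in WT at 60 min 1.44-fold and 0.866-fold. In KO at 30 min they gave 1.19-fold and 0.344-fold. Directions were opposite between the arrays in all 3 of these comparisons, and the means of 1.35-, 1.12- and 0.641-fold lie within the spread of the arrays. Only in KO at 60 min were the arrays close, at 1.25- and 1.2-fold (mean 1.23-fold). The probe was above background in 8 of 8 red and 5 of 8 green readings. The green readings that were not are part of the 2.1-fold ratio in WT and of both KO ratios at 30 min. The size of these ratios is uncertain.

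**Figure D2:**
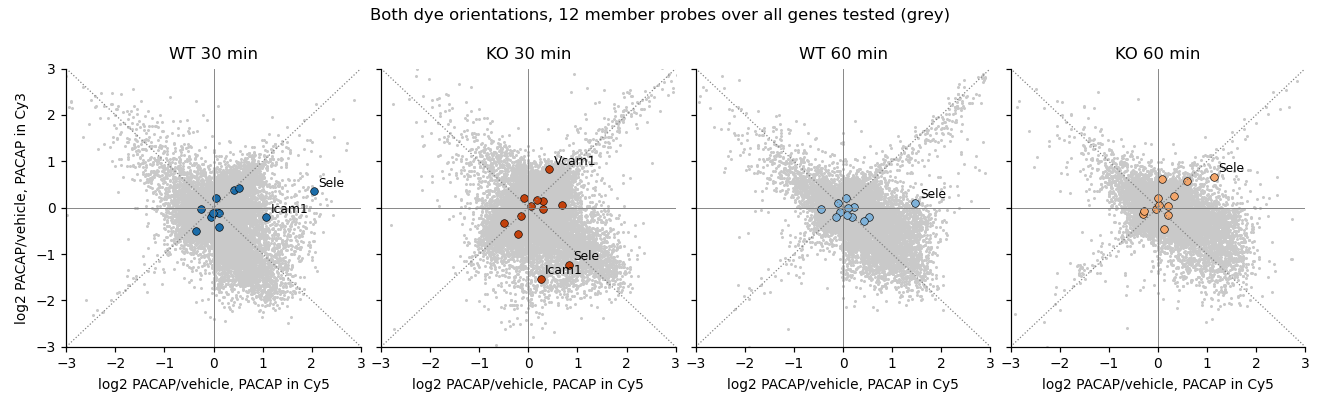
Log2 PACAP over vehicle with PACAP in Cy5 (x axis) against the same ratio with PACAP in Cy3 (y axis), 1 panel per comparison, member probes in colour over all 23115 genes tested (grey, brightest probe each); some grey points fall outside the axes. A difference repeated by both arrays lies on the rising diagonal and one that follows the dye on the falling diagonal; Sele and Icam1 lie off the rising diagonal in WT and KO at 30 min.

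Before the ratios were turned to PACAP over vehicle, red over green correlated across the tested probes between the 2 arrays of a pair, with Pearson's r = 0.27 (WT) and 0.08 (KO) at 30 min and 0.33 (WT) and 0.44 (KO) at 60 min. These correlations are across probes, which are not independent replicates. The part of the ratio that followed the dye was larger than the part that followed PACAP for 4, 4, 6 and 3 of 12 member probes in that order, against 38.9%, 35.7%, 53.0% and 53.6% of all probes tested.

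Vcam1 encodes the endothelial ligand of the integrin VLA-4 of monocytes, lymphocytes and eosinophils. Its brighter probe, from base 3060, gave 1.34- and 1.31-fold (WT) and 0.904- and 0.886-fold (KO) at 30 min. At 60 min it gave 1.18- and 1.01-fold in the WT pair and 1.5-fold on either array in the KO pair, with a mean just under 1.5 before rounding. The arrays were close in each comparison, and in KO at 60 min the Feature Extraction p was 0.00551 and 0.00572. The probe from base 842 gave 0.962- and 0.869-fold (WT) and 1.34- and 1.77-fold (KO) at 30 min. Its readings at 60 min were 0.733- and 0.981-fold for WT and 0.812- and 0.908-fold for KO. Its arrays lay farther apart in KO at 30 min and in WT at 60 min. The probes of this gene had opposite directions in all 4 comparisons, though in WT at 60 min both were close to 1 on the array with PACAP in Cy3, and no direction is given for Vcam1. Selp encodes P-selectin, which is stored in endothelial granules and in platelets and reaches the surface within minutes without new RNA. Its mean ratio over 10 spots was lowest in WT (0.99-fold) and highest in KO (1.16-fold), both at 30 min.

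Of the genes of vessel tone, Edn1 and Nos3 had mean ratios near 1 in every comparison, and Nos2 in all but WT at 30 min. Edn1 encodes endothelin-1, the main constrictor peptide of endothelium. Over its 10 spots the mean ratio in WT was 0.908 at 30 min and 0.996 at 60 min, and in KO it was 1.04 and 0.884. Spot by spot, each averaged over both arrays, the ratio ranged from 0.828- to 1.08-fold over the 4 comparisons. Nos3, the endothelial nitric oxide synthase, was read by a pair of probes, and their mean ratios lay between 0.95- and 1.13-fold. For Nos2, the inducible synthase of activated macrophages and other cells, PACAP over vehicle in WT at 30 min was 0.785-fold and 0.701-fold, a mean of 0.741-fold. In the other comparisons the Nos2 mean lay between 0.977- and 1.04-fold. The arrays were close for Nos2, and its value in WT at 30 min stood apart from the other 3, with a Feature Extraction p of 0.142 and 0.0203. After normexp and loess its log2 ratio there was -0.20, in place of -0.43.

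Thbd encodes thrombomodulin, the thrombin receptor of the vessel surface that starts the protein C pathway, and is also made by keratinocytes. Its ratio in KO at 30 min was 0.706-fold and 0.789-fold (mean 0.747-fold), while the WT mean was 1.09-fold at both times and the KO mean at 60 min 1.07-fold. Cdh5 encodes VE-cadherin, the adhesion protein of endothelial junctions. At 30 min PACAP over vehicle was 1.42- and 1.33-fold for WT but 0.863- and 0.679-fold for KO. At 60 min the arrays read 0.91- and 0.872-fold for WT and 1.07- and 1.52-fold for KO. The direction of Cdh5 was thus opposite between genotypes at each time and opposite between times in each genotype, always on both arrays. Pecam1, the junction protein CD31 of endothelium, platelets and leukocytes, gave mean ratios of 0.898-, 1.3-, 1.05- and 0.893-fold in WT at 30 min, KO at 30 min, WT at 60 min and KO at 60 min. Its arrays lay on opposite sides of 1 in all but KO at 30 min, where they gave 1.62- and 1.04-fold.

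Between the genotypes, 6 of 12 member probes had opposite directions on both arrays at 30 min, against 37.4% of all probes tested, and 2 of 12 at 60 min, against 11.7%. At 30 min these were Cdh5, Thbd and the brighter Vcam1 probe, higher in WT, and Nos2, the Vcam1 probe from base 842 and the Nos3 probe from base 3466, higher in KO. Markers of other tissues moved in the same comparisons. The median log2 ratio of 16 skeletal muscle markers at 30 min was 0.83 for WT, 16 of them above 0, and -0.76 for KO, 1 of them above 0. For 12 mural cell markers it was 0.15 and -0.44, for 10 fibroblast markers 0.29 and -0.30, for 12 keratinocyte markers 0.14 and -0.65, and for 24 endothelial markers 0.03 and -0.21. The log2 of the summed muscle markers was between 16.96 and 17.58 in the vehicle samples and between 16.84 and 17.88 in the PACAP samples. For the keratinocyte markers it was between 18.40 and 18.89 and between 18.14 and 18.66, and none of these muscle, mural, fibroblast or keratinocyte markers was below background in any reading. Their part in the members' ratios was not tested.

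Across the 4 comparisons, PACAP over vehicle passed the adjusted p for 0 of 12 member probes and 0.0% of all probes in limma. At an unadjusted p below 0.05 these were 1 of 12 and 2.23%. The one was Sele, with a mean log2 ratio of 0.67 (SE 0.22, unadjusted p = 0.0225 and adjusted p = 1 from limma), higher on the mean in 3 of 4 comparisons. Without KO at 30 min its value was 0.96 (adjusted p = 0.479 in limma), and after normexp and loess it was 0.17, below the 0.23 of the brighter Vcam1 probe. In the main ratios that probe was next to Sele at 0.24 (SE 0.14; 0.37 without KO at 30 min and 0.12 without KO at 60 min), and the other members lay between -0.09 and 0.08. The PACAP effect in KO against WT passed for 0 of 12 member probes and 0.0% of all probes, and for 0 of 12 and 3.2% at an unadjusted p below 0.05. Here the widest differences were those of Sele (-0.64, SE 0.39, adjusted p = 0.839 in limma) and Icam1 (-0.47, SE 0.34, adjusted p = 0.839 in limma). Without KO at 30 min they were -0.08 and 0.00, so that both rest on this single comparison, and after normexp and loess they were -0.03 and -0.06, with Thbd (-0.29) then the widest. The PACAP effect at 60 against 30 min passed for 0 of 12 member probes and 0.00659% of all, with 0 of 12 and 1.78% at an unadjusted p below 0.05. That fit had 1 residual degree of freedom.

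In vehicle skin, no member differed between the genotypes past the adjusted p (0 of 12 probes and 0.0% of 37538 tested by limma). At an unadjusted p below 0.05 these were 1 of 12 and 6.47%. The brighter Vcam1 probe was the one, with log2 levels at 30 and 60 min of 8.12 and 8.23 (WT) and of 8.65 and 9.02 (KO). The difference of KO from WT was 0.66 (SE 0.15, 2 vehicle samples each, adjusted p = 0.762 in limma). After PACAP, WT skin had 8.47 and 8.37 and KO skin 8.55 and 9.52, so all 4 KO samples lay above all 4 WT samples. Selp, read by a dim probe with 7 of 8 green readings above background, showed the same order. Its levels ran from 6.59 to 6.79 in WT and from 6.83 to 7.28 in KO. Its vehicle difference was 0.32 (SE 0.17, adjusted p = 0.832 in limma), but 0.13 without the KO sample of 60 min, 0.52 without that of 30 min and 1.00 with processed signals scaled to the 75th percentile. These were 2 of 12 member probes without overlap between the genotypes, against 17.9% of all probes tested, which is close to the background. The Vcam1 probe from base 842 overlapped, from 6.80 to 7.15 in WT and from 6.89 to 7.27 in KO, and its vehicle difference was 0.09 (SE 0.19). Each of these differences is also one between slides. In vehicle skin 7 erythroid markers had a median KO minus WT difference of -0.70 (0 higher in KO) and 10 fibroblast markers one of 0.32 (8 higher). For 12 macrophage and monocyte markers it was 0.13 (8 higher), and for 24 endothelial markers 0.05 (13 higher). Their part in the values of Vcam1 and Selp was not tested.

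**Figure D3:**
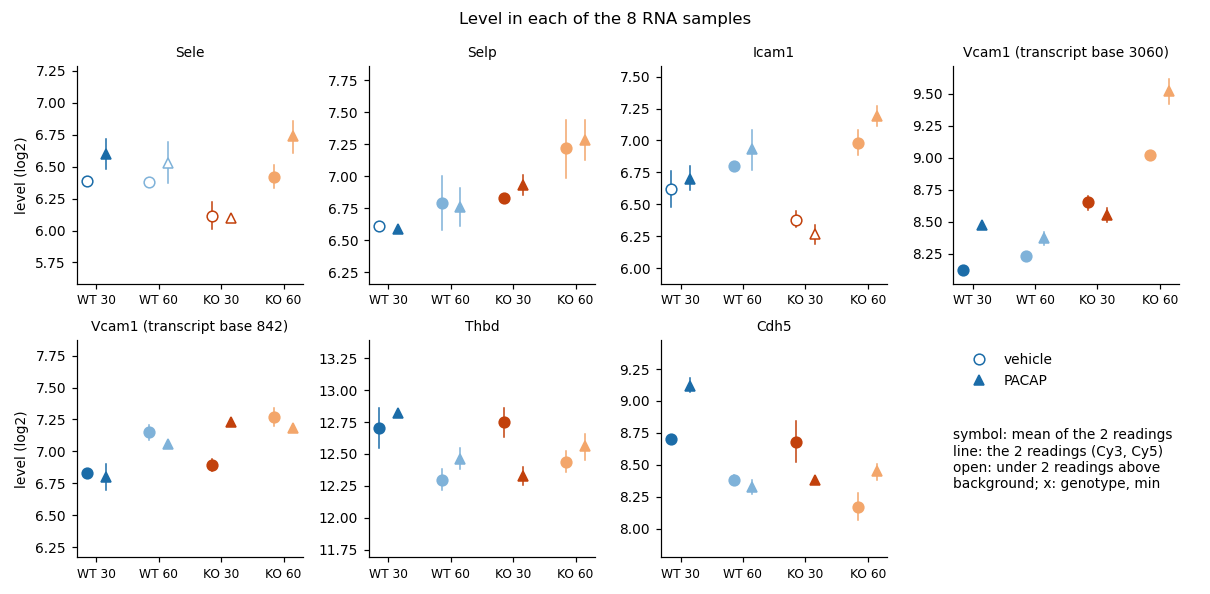
Log2 level (y axis, normexp and loess with quantile-scaled average intensity) in each of the 8 RNA samples (x axis, genotype and minutes) for 7 member probes; every panel spans the same range of log2 units. Symbols are means of the Cy3 and the Cy5 reading, lines join the 2 readings, and open symbols had under 2 readings above background; Selp and the Vcam1 probe from base 3060 were higher in all 4 KO samples, and Icam1 higher in all 4 samples at 60 min.

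Between the vehicle samples of 30 and 60 min, 0 of 12 member probes and 0.0% of 37538 passed the adjusted p in limma with the slide as a block. At an unadjusted p below 0.05 these were 4 of 12 and 23.1%. This fit, too, had 1 residual degree of freedom, so its SEs are uncertain. The levels of Thbd were 12.70 and 12.75 at 30 min and 12.30 and 12.44 at 60 min in WT and KO, a difference of -0.35 (SE 0.05, adjusted p = 0.149 in limma). Cdh5 had 8.70 and 8.68 at 30 min and 8.38 and 8.17 at 60 min (-0.41, SE 0.07, adjusted p = 0.15 in limma). Thus both were lower at 60 min in vehicle skin of either genotype. In the PACAP samples the same difference was -0.06 (SE 0.19) for Thbd and -0.37 (SE 0.28) for Cdh5. In the vehicle samples 12 keratinocyte markers had a median difference of -0.36 between the times, with 1 of 12 higher at 60 min and 7 of 12 at an unadjusted p below 0.05 in limma, and 12 mural cell markers one of -0.23, with 3 and 7 of 12. For 24 endothelial markers the median was -0.01, with 11 higher at 60 min and 9 at an unadjusted p below 0.05, so they moved in both directions. Their part in the values of Thbd and Cdh5 was not tested. Selp was higher at 60 min by 0.29 (SE 0.08, adjusted p = 0.191 in limma), with an SE of 0.18 without the slide term. The Vcam1 probe from base 842 was higher by 0.35 (SE 0.05, adjusted p = 0.149 in limma), against 0.10 (SE 0.12) in the PACAP samples. Icam1 differed by 0.39 (SE 0.13, adjusted p = 0.235 in limma). Its 8 levels did not overlap between the times, from 6.27 to 6.70 at 30 min and from 6.80 to 7.19 at 60 min. The Icam1 readings that were not above background were all at 30 min, so the size of this difference is uncertain. The median of the 29 immediate early and NF-kB target genes was 0.20 higher at 60 min in these vehicle samples, with 20 higher and 19 at an unadjusted p below 0.05 in limma, and that of 11 neutrophil markers 0.24 higher, with 8 and 7. No gene of either list passed the adjusted p, and their part in the values of the adhesion genes was not tested. Together with the Nos3 probe from base 3466, which was lower at 60 min, Icam1 made 2 of 12 member probes without overlap between the times, against 21.0% of all probes tested. With Feature Extraction's processed signals scaled to the 75th percentile, Icam1 (1.34, adjusted p = 0.0206 in limma) and the Vcam1 probe from base 842 (0.80, adjusted p = 0.0337 in limma) passed the threshold. Selp (0.73) and Sele (1.11, in place of 0.15) also differed more between the times by that scaling. That scaling moved the median of all probes by 0.11 and called 4350 probes in place of 0. In the PACAP samples no member passed the adjusted p for this difference in time.

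The other genes of the pathways were compared with the members by lists. Of 7 genes of the endothelin system and 16 of the nitric oxide and cGMP system, none was called in any comparison. The widest mean ratio of the endothelin system was 1.46-fold for Ece1 (WT at 30 min), which cuts the precursor of endothelin. No call was made either among 33 other vasoactive genes, 15 anticoagulant and haemostasis genes, 24 endothelial markers and 16 angiogenic regulators. Their widest mean ratios were 0.584-fold for Vipr1, the VPAC1 receptor of PACAP and VIP, and 1.75-fold for Plaur, the urokinase receptor, both in KO at 30 min, 1.65-fold for Flt1, a VEGF receptor, in WT at 30 min, and 0.526-fold for Nrp1, a VEGF co-receptor, in KO at 30 min. Among 3 lymphatic endothelial genes a second, dimmer probe of Pdpn was called in KO at 30 min (3.06-fold). The widest ratio of 12 mural cell markers was that of Abcc9 in WT at 30 min (1.73-fold), and none was called. Nor was any of 12 macrophage and monocyte markers, 10 fibroblast markers or 12 housekeeping genes, and the widest mean ratios of the macrophage and fibroblast lists were 2.14-fold for Fcgr1 in KO at 60 min (4.05- and 1.13-fold on the arrays) and 0.55-fold for Col1a2 in KO at 30 min.

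On the leukocyte side, some markers of neutrophils were called. Over the neutrophil list the log2 ratios centred on 0.74 in WT and 1.34 in KO at 30 min (medians) and on -0.17 and 0.35 at 60 min. Of its 11 genes, 0 were called in WT, 6 in KO at 30 min and 3 in KO at 60 min, namely S100a8 (KO mean ratios of 4.13 at 30 min and 4.56 at 60 min), S100a9 and Fpr2 at both times and Fpr1, Clec4d and Retnlg at 30 min, from 2.12- to 7.47-fold. Csf3r of the same list, above background in 16 of 16 readings, was not called. Its mean ratios in KO were 0.737 (30 min) and 1.2 (60 min), and those in WT 1.27 and 0.989. In the KO pair of 30 min, 10 of the 11 genes lay above a log2 ratio of 0, and Csf3r lay below it. Whether the calls reflect the number of neutrophils was not tested. Of 29 immediate early and NF-kB target genes, 4 were up-regulated in WT at 30 min and 2 in KO at 30 min. They were Cxcl2 (3.91-fold in WT and 3.32-fold in KO), Il1b (2.1-fold and 4.76-fold), and in WT alone by this rule Cxcl1 (2.61-fold) and Ccl2 (2.04-fold). With 1 RNA pair per genotype and time, the difference of these calls between WT and KO was not tested. In KO at 30 min, where most of the neutrophil calls were made, Sele and Icam1 had their lowest mean ratios (0.868- and 0.641-fold). Their arrays disagreed there, so these ratios set no direction for the adhesion genes. In WT at 60 min 7 erythroid markers had a median log2 ratio of -0.90 and 9 platelet markers one of -0.23, with 0 above 0 in either list. The bright platelet marker Pf4 was 0.979-fold there. Only 5 of 9 platelet, 6 of 7 erythroid and 7 of 11 neutrophil markers were above background in every reading. The erythroid median was 0.43 and 0.20 at 30 min (WT, KO) and 0.52 in KO at 60 min, and the platelet median -0.11, 0.30 and 0.09 in that order. Called platelet, erythroid, keratinocyte and muscle markers were Ppbp (KO at 30 min 2.09-fold, WT at 60 min 0.458-fold), Clec1b (0.438- and 0.45-fold at 2 probes) and Hbb-b1 (0.413-fold) in WT at 60 min, Krt1 (0.455-fold) and Krt10 (0.365-fold) of the KO pair at 30 min, and Myh1 and Myh4 (2.67- and 2.75-fold in WT and 0.445- and 0.402-fold in KO at 30 min), with Cacna1s and Myh2 in WT and Acta1 and Actn3 in KO.

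**Figure D4:**
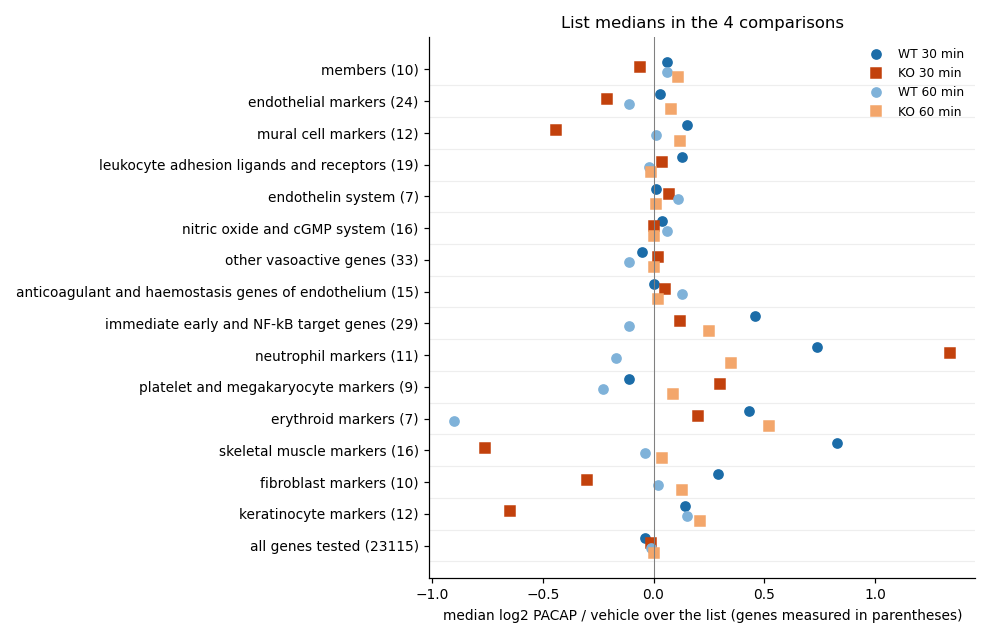
Median log2 PACAP over vehicle (x axis) over the genes of each list (y axis, number measured in parentheses) in the 4 comparisons (colours). The members and the vascular lists lie near 0, within 0.21 apart from the mural markers in KO at 30 min (-0.44), while the neutrophil, platelet, erythroid, muscle, fibroblast, keratinocyte and NF-kB target lists lie farther out in 1 comparison or more.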

How the data were processed

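Forepaw skin RNA was measured on 8 arrays of 60-base probes. Scans were read by the authors in Agilent's Feature Extraction software (12.0.3.1 in the file headers, 11.0.1.1 in the submitters' processing notes). The deposited values include a log10 ratio (red over green) per spot, background-corrected and LOWESS-normalized within each array, which takes out the mean effect of the dye but not one particular to a probe. The deposited p-value of a spot speaks of 1 array, not of animals. Deposited too are each channel's intensity values, as mean, background and processed signals. The authors' series matrix holds log10 of processed red over green.

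Control spots and outlier spots were left out, ratios were turned to PACAP over vehicle by the dyes in the labels, and spots, then arrays, were averaged. Genes are named as in the files and given by their brightest probe unless another is named. Levels are log2 intensities after normexp (offset 50), loess and Aquantile, averaged over the swap. Tests used limma 3.58.1 in R 4.3.3 (lmFit, eBayes, Benjamini-Hochberg over all probes), on 30351 probes above background in 1 channel or more on every array, or 37538 in vehicle samples. They compared the mean of the 4 comparisons with 0, KO with WT, and 60 with 30 min with slide as a block. With 2 values a group, p-values measure the spread between these RNA samples. All members were named. Other list genes were named if called, otherwise the widest ratio of a list. Some list results that this rule would name are not reported here. The members and lists were chosen with earlier results of these data known. Alternatives were normexp and loess, median centring, outlier spots kept, series matrix ratios, other fold and p rules, single arrays, other probes, filters on dim probes, left-out samples and a replicate block. The steps were tested on simulated data. For limma the simulated shifts were larger than any member's ratio. Whether effects of the members' size would be found was not tested. Python 3.11.15 with pandas 2.3.3 was used for the counts.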

Additional observations from a re-analysis of the deposited data

Results flagged for a closer look

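For 8 member readings both arrays of WT pointed one way and both arrays of KO the other at the same time point. Whether these effects differ between the genotypes was not tested at a single time, and 37.4% of all probes at 30 min and 11.7% at 60 min showed such a pattern. At 30 min the log2 PACAP effect in KO minus WT was -0.85 for Cdh5, -0.54 for Thbd, 0.47 for Nos2 and 0.24 for the Nos3 probe from base 3466. For Vcam1 it was -0.57 at the probe from base 3060 and 0.75 at the probe from base 842, so the sign depended on the probe. At 60 min it was 0.52 for Cdh5, the reverse of its sign at 30 min, and 0.11 for the Nos3 probe from base 3466.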

How the results depend on the processing

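No member was called in any comparison under normexp and loess, median centring, outlier spots kept, series matrix ratios, 2-fold on each array or a 1.5-fold mean, which the brighter Vcam1 probe in KO at 60 min missed narrowly. Without the Feature Extraction p filter, 1 was called in WT at 30 min (Sele), with 0.715% of all probes. On single arrays the count ranged from 0 to 1 in each comparison: Sele with PACAP in Cy5 alone in WT at 30 min (1.76% of all probes), WT at 60 min (2.16%) and KO at 60 min (1.6%), and Icam1, down-regulated, with PACAP in Cy3 alone in KO at 30 min (3.22%). Of 40 mean ratios, normexp and loess moved 9 by more than the spread of the arrays and turned the sign of 2. The measure is the spread of each probe's own arrays. Wide shifts of Sele in WT at 30 min (1.19 to 0.21) and Icam1 in KO at 30 min (-0.64 to -0.12) are therefore not among the 9. Single arrays turned the sign of 7 (without replicate 1) and 10 (without replicate 2). For the number of members past the adjusted p, the other settings gave 0 throughout, including single arrays with a replicate block (0 of 12 in each of the 3 ratio fits), except that processed signals gave 2 for vehicle skin at 60 against 30 min (Icam1 and Vcam1 from base 842). The cause was not tested. With both channels required above background only 9 of 12 member probes were tested, without Sele, Selp and Icam1. The PACAP effect of Icam1 in KO against WT ranged from -0.935 to 0.001 with 1 comparison left out, the latter, reversed, without KO at 30 min. Over all probes, the KO against WT fit called 0 to 170 when 1 comparison was left out, 17 with time as a covariate and 4 with the replicate block, and the 60 against 30 min ratio fit called 0 to 15 over its settings. Leaving out a comparison in the 60 against 30 min fits was not run, since it leaves no residual degree of freedom. Dim green signals limit Sele and Icam1, and to a lesser degree Selp, with 7 of 8 green readings above background.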
